A study of Mus musculus with 6 samples.

Results

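The hemoglobin and red cell genes described here were the rows of the deposited brain expression table whose symbol started with Hba- or Hbb-, together with Alas2 and Slc4a1. They made up 13 of the 38087 genes in the table, with 4 Hba- rows, 7 Hbb- rows and the other two. RNA was measured by RNA-seq, with 1 library per mouse, in the cerebrum of 3 wild-type (WT) and 3 Sgo1-/+ mice, all of strain C57BL6, untreated and 24 months old. Sgo1-/+ mice are haploinsufficient for Shugoshin-1 (Sgo1), which protects the cohesin that holds sister chromatids together. The tissue came from 1 frozen hemisphere and held cortex and hippocampus, while olfactory bulb, cerebellum and medulla were left out. Males gave WT replicate 1 and Sgo1-/+ replicate 2, and females gave the rest. The genotypes cannot be told apart from the sequencing runs, since run 258 held only WT and run 259 only Sgo1-/+ libraries.

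Total estimated counts per library were between 11123917 and 12505561, and values are given below as normalized counts, that is, scaled by edgeR's TMM method to a library of average size. Sgo1 had estimated counts of 0, 7 and 0 in WT and of 4, 2 and 0 in Sgo1-/+ mice, too few to check the genotype labels. WT replicate 1 stood apart from the rest and against the stated dissection. The summed normalized count of 15 markers of cerebellum and brain stem was 28754 in it and between 2029 and 2739 in the other 5 libraries, and that of 12 neuron markers was 84406 against 132733 to 167293. Fold changes of Hba-a1, Hba-a2, Hbb-b1, Hbb-b2, Alas2 and Slc4a1 are therefore given with each library left out in turn. Those of marker genes are not given without WT replicate 1, and some rest on it.

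Hemoglobin is a tetramer of alpha chains and beta chains, each of which holds a heme group that binds oxygen. Adult mice make their alpha chains from Hba-a1 and Hba-a2 and their beta chains from Hbb-b1 and Hbb-b2, while Hba-x, Hbb-y and Hbb-bh1 serve the red cells of the embryo. Alas2 encodes the erythroid form of the enzyme that starts heme synthesis, and Slc4a1 encodes band 3, the anion exchanger that anchors the skeleton of the red cell membrane. Mature red cells of mammals have no nucleus, and reticulocytes, the youngest circulating ones, still carry globin mRNA. Blood left in the vessels brings globin mRNA into tissue extracts, and low globin expression has also been described in neurons. In bulk tissue, fewer cells of a type and less RNA per cell cannot be told apart.

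Each adult pair consists of near-identical copies, which limits what a count for either copy means. Hba-a1 (ENSMUSG00000069919) is found on chromosome 11 (mm10), plus strand, from 32283511 to 32284465, and Hba-a2 (ENSMUSG00000069917) on the same strand from 32296489 to 32297298. Hbb-b1 (ENSMUSG00000052305) lies on the minus strand of chromosome 7 from 103826534 to 103828096, and Hbb-b2 (ENSMUSG00000073940) from 103812524 to 103813996. GENCODE M21 calls these beta genes Hbb-bs and Hbb-bt. The coding sequences of Hba-a1 and Hba-a2, of 426 bases without the stop codon, differed at 1 base, C381T, where positions are counted from the A of the start codon and the Hba-a1 base comes first. Those of Hbb-b1 and Hbb-b2, of 441 bases, differed at 1 base, C417T. Both differences fell in the third place of a codon. The stretches of 60 coding bases around them are shown 5′ to 3′ from the GENCODE M21 transcripts, since they hold all that tells the copies apart within the coding sequence, and the capital marks the base that differs.
Hba-a1: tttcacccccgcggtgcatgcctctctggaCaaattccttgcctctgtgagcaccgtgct
Hba-a2: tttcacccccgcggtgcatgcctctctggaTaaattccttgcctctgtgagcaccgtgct
Hbb-b1: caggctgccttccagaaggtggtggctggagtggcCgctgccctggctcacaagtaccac
Hbb-b2: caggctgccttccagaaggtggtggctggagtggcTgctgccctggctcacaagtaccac

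Of all windows of 150 bases, the read length, in the longest spliced transcript of each gene, 48.4% in Hba-a1, 65.7% in Hba-a2, 58.7% in Hbb-b1 and 50.7% in Hbb-b2 also occurred in the transcript of the other copy. The deposited counts of these genes were mostly fractions, so the split of reads within a pair depends on the counting, and only the sum over a pair does not.

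The promoters of the adult globins and Alas2 are shown because the levels of these genes moved together across the libraries. RefSeq (GRCm38.p6) held a promoter for 8 of the 13 genes, under the names Hbb-bs and Hbb-bt for the adult beta genes. Each line gives the 120 bases before the RefSeq start, 5′ to 3′ on the gene's strand, and capitals mark the CCAAT box, the CACCC box, the TATAA box and the GATAA motif on either strand. Some GENCODE M21 transcripts of these genes start farther upstream than the RefSeq start. The windows are chr11:32283552-32283671 and chr11:32296372-32296491 on the plus strand for Hba-a1 and Hba-a2, chr7:103827929-103828048 and chr7:103813924-103814043 on the minus strand for Hbb-b1 and Hbb-b2, and chrX:150547297-150547416 on the plus strand for Alas2.
Hba-a1: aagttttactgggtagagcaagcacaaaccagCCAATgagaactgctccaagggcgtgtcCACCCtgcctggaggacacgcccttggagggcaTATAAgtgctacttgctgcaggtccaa
Hba-a2: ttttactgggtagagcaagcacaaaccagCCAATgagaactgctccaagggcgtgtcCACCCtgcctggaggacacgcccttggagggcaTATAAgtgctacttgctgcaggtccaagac
Hbb-b1: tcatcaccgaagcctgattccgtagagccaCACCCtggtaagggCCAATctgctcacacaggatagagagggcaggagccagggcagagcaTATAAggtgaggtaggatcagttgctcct
Hbb-b2: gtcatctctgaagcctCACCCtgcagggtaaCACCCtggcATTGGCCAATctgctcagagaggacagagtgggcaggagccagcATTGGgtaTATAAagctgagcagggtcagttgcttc
Alas2: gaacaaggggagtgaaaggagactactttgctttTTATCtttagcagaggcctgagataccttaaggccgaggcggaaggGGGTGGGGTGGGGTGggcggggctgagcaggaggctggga

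The Hba-a1 and Hba-a2 windows shared an identical run of 117 bases, while the longest run shared by the Hbb-b1 and Hbb-b2 windows was 14 bases. The CCAAT box, the CACCC box and the TATAA box each occurred in all 4 adult globin windows. In Hbb-b2 a CCAAT box on the opposite strand, written ATTGG, directly preceded the one on the given strand. Among 32851 RefSeq promoters, the same 120-base window held the CCAAT box in 21.3%, the CACCC box in 31.7%, the TATAA box in 11.8% and the GATAA motif in 10.5%. The Alas2 window held the CACCC box at 3 places and the GATAA motif at 1 place, all on the opposite strand, where the letters read GGGTG for the box and TTATC for the motif. It held neither a CCAAT box nor a TATAA box. Of the other genes with a RefSeq promoter, the Hba-x window held the CACCC box, the TATAA box and the GATAA motif. The Hbb-y window held the CCAAT box and the CACCC box, and the Hbb-bh2 window held none of the 4 motifs. A match describes these letters only.

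The adult globins were high in Sgo1-/+ replicate 1 and low in Sgo1-/+ replicates 2 and 3, with the WT libraries in between, so that the groups overlapped for each of them. Hba-a1, the most abundant by group means, had normalized counts of 1499, 2118 and 2110 in WT mice (here and below in the order of the replicates) and of 6776, 1039 and 540.1 in Sgo1-/+ mice. Its copy Hba-a2 had 346.9, 456.9 and 607.9 in WT and 1725, 279.0 and 157.6 in Sgo1-/+ mice. In both alpha genes the highest and the lowest library were thus Sgo1-/+ replicates 1 and 3. Hbb-b1 had 1193, 2143 and 1374 in WT and 4163, 622.4 and 380.6 in Sgo1-/+ mice. Hbb-b2 had 949.4, 1525 and 1436 in WT and 4148, 602.7 and 297.6 in Sgo1-/+ mice. The beta genes had the same highest and the same lowest library as the alpha genes. This pattern, highest in Sgo1-/+ replicate 1 and below every WT library in Sgo1-/+ replicates 2 and 3, was found in 4 of the 5 red cell genes that passed the filter on low counts, against 184 of 16337 genes tested (1.13%). The pattern was worded from the values of these 4 genes, which form pairs of near-identical copies, so this count is a description and not a test. Being highest in Sgo1-/+ replicate 1 was alone true of 12.3% of genes, and lying below every WT library in both other Sgo1-/+ libraries of 7.98%.

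**Figure D1:**
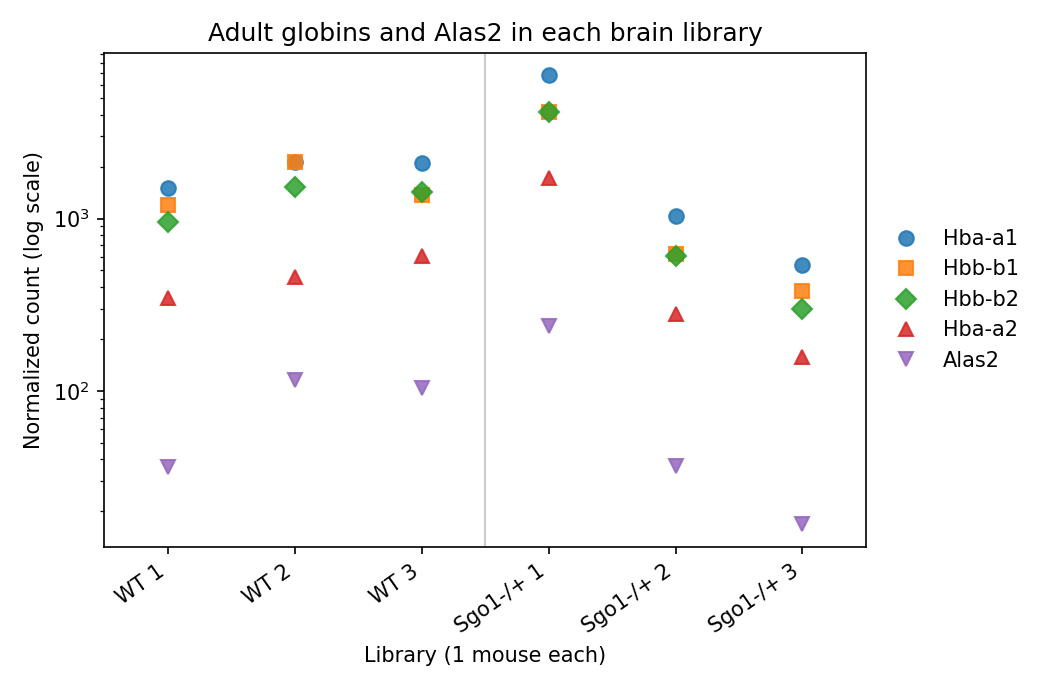
Normalized counts on a log axis of Hba-a1, Hbb-b1, Hbb-b2, Hba-a2 and Alas2 in each of the 6 libraries, 1 point per gene and library, with WT to the left and Sgo1-/+ to the right of the line. All 5 genes are highest in Sgo1-/+ replicate 1, with Hba-a1 at 6776, and lowest in Sgo1-/+ replicate 3, with Hba-a1 at 540.1.

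Alas2 (ENSMUSG00000025270, chromosome X from 150547375 to 150570638) showed much the same order at a lower level. Its normalized counts were 36.0, 115 and 104 in WT and 239, 36.5 and 16.8 in Sgo1-/+ mice. Sgo1-/+ replicate 2 was thus slightly above WT replicate 1, which kept Alas2 from the pattern of the 4 globins. As a share of the globin counts, Alas2 made up 0.903, 1.84 and 1.88% in WT and 1.42, 1.43 and 1.22% in Sgo1-/+ mice, with overlapping groups (exact two-sided permutation test of the log2 ratio, p = 1).

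Levels of different genes were compared per kilobase of the longest transcript. Hba-a1 had 2731 ± 508 normalized counts per kilobase in WT and 3984 ± 4957 in Sgo1-/+ mice (SD, n = 3), Hbb-b1 had 2500 ± 803 and 2742 ± 3372, and Hbb-b2 had 1854 ± 441 and 2394 ± 3045. Hba-a2 had 849 ± 237 normalized counts per kilobase in WT and 1300 ± 1574 in Sgo1-/+ mice, and Alas2 had 17.7 to 56.5 in WT and 8.27 to 117 in Sgo1-/+ mice. The order of these levels was Hba-a1, Hbb-b1, Hbb-b2, Hba-a2 and Alas2 in the WT means. However, the Hba-a1 and Hbb-b1 levels of the WT libraries overlapped, as did those of Hbb-b1 and Hbb-b2. Levels and ranks of single copies depend on how reads were split within a pair and on the transcript length used. Summed over each pair, the alpha to beta ratio per kilobase was 0.852, 0.690 and 0.973 in WT and 1.02, 1.08 and 1.03 in Sgo1-/+ mice. Among 21808 protein-coding genes, Hba-a1 ranked at place 16 in Sgo1-/+ replicate 1, at 116, 126 and 213 in WT replicates 2, 3 and 1, and at 410 and 943 in Sgo1-/+ replicates 2 and 3. In the same libraries Hbb-b1 ranked between 35 and 1299, Hbb-b2 between 43 and 1954 and Hba-a2 between 130 and 3035, each highest in Sgo1-/+ replicate 1 and lowest in Sgo1-/+ replicate 3. Alas2 ranked between 6435 in Sgo1-/+ replicate 1 and 13564 in Sgo1-/+ replicate 3.

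No difference between the genotypes was detected for any red cell gene when all libraries were fitted. By edgeR's quasi-likelihood test, adjusted over all genes by the Benjamini-Hochberg method, 0 of the 5 members tested passed an adjusted p of 0.05, as did 0 of the 16337 genes tested (0%). An unadjusted p under 0.05 was found for 0 of these 5 members and for 333 of 16337 genes (2.04%), and DESeq2's Wald test called 0 of the 5 members. Hba-a1 had a mean of 1909 ± 355 in WT and of 2785 ± 3465 in Sgo1-/+ mice (SD, n = 3), a log2 fold change of 0.55 with a standard error (SE) of 0.852 (edgeR, unadjusted p = 0.543, adjusted p = 0.9999). The log2 fold change was 0.61 for Hba-a2 (SE 0.826), 0.13 for Hbb-b1 (SE 0.840), 0.37 for Hbb-b2 (SE 0.882) and 0.19 for Alas2 (SE 0.935), each smaller than its own SE. In no tested member were all Sgo1-/+ libraries above or all below the WT libraries, an arrangement seen in 3.28% of the genes tested in the upward and 3.57% in the downward direction.

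The direction of these fold changes depended on the libraries in the fit. Without Sgo1-/+ replicate 1, all 5 tested members were lower in Sgo1-/+ than in WT mice at an unadjusted p under 0.05, against 279 of 16676 genes (1.67%) in that fit, and 0 of the 5 passed after adjustment over all genes. The log2 fold changes in this fit were -1.27 for Hba-a1 (SE 0.328, edgeR, unadjusted p = 0.00874), -1.11 for Hba-a2 (SE 0.345, unadjusted p = 0.0191), -1.65 for Hbb-b1 (SE 0.346, unadjusted p = 0.00344), -1.53 for Hbb-b2 (SE 0.370, unadjusted p = 0.00651) and -1.68 for Alas2 (SE 0.633, unadjusted p = 0.0390), all with an adjusted p of 0.9998. Because this fit leaves out the library in which the members were highest, its p-values describe the 5 remaining libraries only. Leaving out Sgo1-/+ replicate 3, the lowest, moved the values up, to 1.03 for Hba-a1 and 0.61 for Hbb-b1. Without WT replicate 1, the library with markers of cerebellum and brain stem, they were 0.40 for Hba-a1, 0.44 for Hba-a2, -0.03 for Hbb-b1, 0.19 for Hbb-b2 and -0.17 for Alas2.

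**Figure D2:**
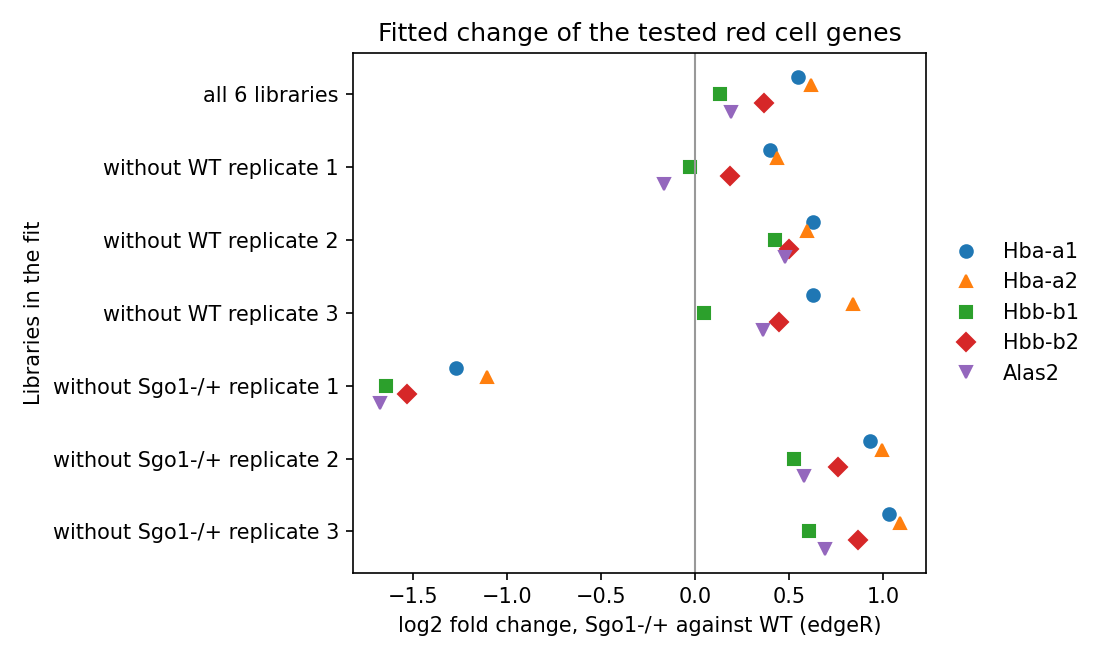
Fitted log2 fold changes of Sgo1-/+ against WT (x axis, edgeR) for Hba-a1, Hba-a2, Hbb-b1, Hbb-b2 and Alas2, with all 6 libraries and with each library left out in turn (y axis). The 5 genes lie between -1.68 and -1.11 without Sgo1-/+ replicate 1 and between 0.13 and 0.61 with all libraries.

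The members were among the most variable genes between the libraries. The standard deviation of the log2 normalized count over the 6 libraries was 1.22 for Hba-a1, 1.17 for Hba-a2, 1.23 for Hbb-b1, 1.30 for Hbb-b2 and 1.40 for Alas2, and between 1.96% (for Alas2) and 3.31% (for Hba-a2) of the 16337 genes varied at least as much. Within a library the 4 adult globins lay close together. Relative to the median library, their log2 values differed among themselves by 0.20 in WT replicate 1 and by 0.63 in Sgo1-/+ replicate 3. These were the smallest and the largest of the 6 spreads. Reads that fit either copy were divided within a pair, so likeness between copies depends in part on the counting.

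Summed over a pair, which removes the split between the copies, the alpha globins had 1846, 2575 and 2718 normalized counts in WT and 8500, 1318 and 698 in Sgo1-/+ mice. The difference of the mean log2 values was -0.24 (exact two-sided permutation test, p = 0.9, n = 3 per group, smallest possible p 0.1). All Hbb- rows together had 2143, 3672 and 2811 in WT and 8311, 1225 and 678 in Sgo1-/+ mice, a log2 difference of -0.56 (exact two-sided permutation test, p = 0.6). The sum of all 13 members was 4037, 6365 and 5639 in WT and 17068, 2580 and 1394 in Sgo1-/+ mice, a log2 difference of -0.41 (exact two-sided permutation test, p = 0.8). Sgo1-/+ replicate 1 was 2.68-fold above the highest WT library and 12.2-fold above Sgo1-/+ replicate 3 in this sum. The log2 differences of the sums were negative while the fitted fold changes were positive, since the mean of the counts gives the high library more weight than the mean of the log2 values does.

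As a share of all counts, the adult globins made up 0.0356, 0.0524 and 0.0443% in WT and 0.136, 0.0207 and 0.0111% in Sgo1-/+ mice. By sex, the adult globin sum was 16812 and 1376 in the female Sgo1-/+ replicates 1 and 3 and 6243 and 5529 in the female WT replicates 2 and 3. In the males it was 3988 in WT replicate 1 and 2543 in Sgo1-/+ replicate 2, with 1 library per genotype. From the highest down, the males held places 4 and 5, and females held the highest and the lowest place. An effect of sex on this sum was not tested.

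The ratio of alpha to beta chain counts varied far less than either chain. Hba-a1 and Hba-a2 against all Hbb- rows gave 0.862, 0.701 and 0.967 in WT and 1.02, 1.08 and 1.03 in Sgo1-/+ mice. Over the 6 libraries it had a 1.53-fold range, while the alpha counts had a 12.5-fold and the beta counts a 12.6-fold range. The mean ratio was 0.843 ± 0.134 in WT and 1.04 ± 0.0292 in Sgo1-/+ mice (SD, n = 3). Every Sgo1-/+ library lay above every WT library, the log2 difference was 0.32, and the exact permutation p (two-sided) was 0.1, the smallest that 3 against 3 libraries allow. Counted per kilobase of transcript, the log2 difference was 0.33.

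The 95% Wilson intervals, computed on halved counts since both mates of a fragment appear to have been counted, covered counting error only. They ran from 0.788 to 0.940, from 0.654 to 0.752 and from 0.898 to 1.04 in the WT libraries, and from 0.980 to 1.07, from 0.965 to 1.20 and from 0.886 to 1.20 in the Sgo1-/+ libraries. WT replicate 3 therefore could not be told from the Sgo1-/+ libraries at this depth, while the interval of WT replicate 2 lay below all of theirs. The log2 difference was 0.19 without WT replicate 2 and 0.42 without WT replicate 3. Set against each beta copy, the ratio of alpha to Hbb-b2 counts was 1.94, 1.69 and 1.89 in WT and 2.05, 2.19 and 2.34 in Sgo1-/+ mice (exact permutation p = 0.1), without overlap. The ratio of alpha to Hbb-b1 counts was 1.55, 1.20 and 1.98 in WT and 2.04, 2.12 and 1.83 in Sgo1-/+ mice (exact permutation p = 0.2), with overlap. Unlike the ratio to all Hbb- rows, these ratios to a single beta copy depend on how the counting split reads between the copies.

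**Figure D3:**
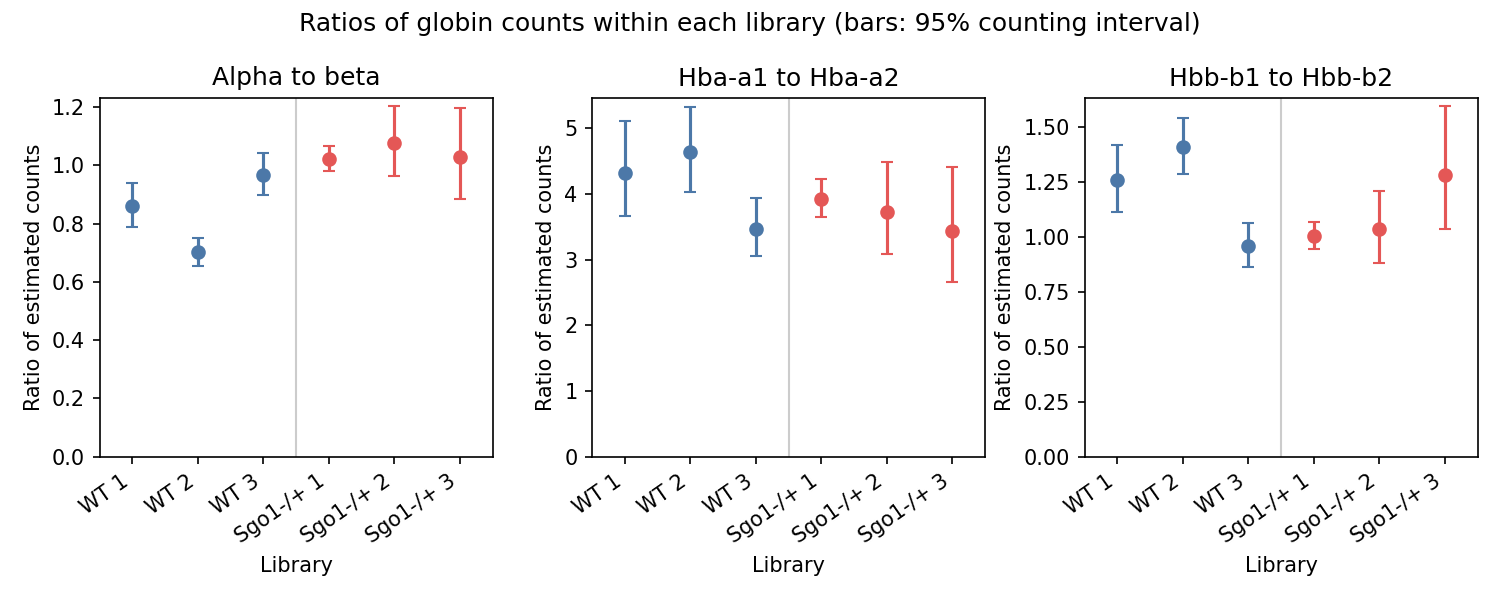
Ratios of estimated counts (y axis) of summed alpha to summed beta globins, of Hba-a1 to Hba-a2 and of Hbb-b1 to Hbb-b2 in each library (x axis; blue WT, red Sgo1-/+), with 95% Wilson intervals on halved counts as bars. The alpha to beta ratio runs from 0.701 in WT replicate 2 to 1.08 in Sgo1-/+ replicate 2, and both ratios between copies overlap between the genotypes.

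Between the copies, Hba-a1 had more counts than Hba-a2 in every library, with ratios of 4.32, 4.64 and 3.47 in WT and 3.93, 3.72 and 3.43 in Sgo1-/+ mice (exact two-sided permutation p = 0.3). Hbb-b1 and Hbb-b2 were closer to each other, with ratios of Hbb-b1 to Hbb-b2 of 1.26, 1.40 and 0.957 in WT and 1.00, 1.03 and 1.28 in Sgo1-/+ mice (exact two-sided permutation p = 0.7). Neither ratio separated the groups. Both depend on how the counting divided reads that fit either copy.

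The other Hba- and Hbb- rows were at or near 0. Hbb-bh0, Hbb-bh2 and Hbb-bh3 had an estimated count of 0 in every library, which allows up to 3 fragments each at this depth. The embryonic alpha gene Hba-x reached 1 count in WT replicate 1 and 0.5 in Sgo1-/+ replicate 2, Hbb-bh1 reached 0.69 in WT replicate 3, and Hbb-y had 4 counts in WT replicate 2 and 0 elsewhere. The pseudogene Hba-ps4 on chromosome 17 had 5.09, 1.09 and 1.48 counts in WT and 4.88, 0 and 0.5 in Sgo1-/+ mice. Whether these include reads of the adult alpha genes was not tested.

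Slc4a1 (ENSMUSG00000006574, chromosome 11 from 102348824 to 102366203) was low although it encodes one of the main proteins of the red cell membrane. Its estimated counts were 6, 2 and 4 in WT and 12.25, 0 and 1 in Sgo1-/+ mice, so Sgo1-/+ replicate 1 was again the highest library and the groups overlapped. It did not pass the filter. A fit without filtering gave a log2 fold change of 0.11 (SE 1.18, edgeR, unadjusted p = 0.928), a value that depends on the prior count. Of the 13 members, 8 had more than 3 counts in some library and 5 passed the filter.

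Of other red cell genes, 3 of 14 tested genes of erythroid differentiation and reticulocytes, 4 of 14 of the red cell membrane and skeleton and 1 of 15 of heme synthesis were highest in Sgo1-/+ replicate 1, against 12.3% of all genes tested. The lists were chosen with earlier results of these data known, and their counts are set against a median log2 fold change of -0.00069 over all 16337 genes. Of 26 genes of erythroid differentiation and reticulocytes, 25 were found by name, 14 were tested, 0 had an unadjusted p under 0.05, and the median log2 fold change was -0.02. The most abundant were genes that many tissues express, such as Tmcc2 with 2301 ± 157 normalized counts in WT and 2274 ± 72.5 in Sgo1-/+ mice (SD, n = 3) and the ubiquitin ligase Ube2o with 1920 ± 98.1 and 1895 ± 17.6. The smallest p-values of this list belonged to Isg20, with a log2 fold change of -0.76 (edgeR, unadjusted p = 0.134), and to Ermap, with -0.40 (unadjusted p = 0.381). For the red cell membrane and skeleton, 14 of 20 genes were tested, 0 had an unadjusted p under 0.05, and the median was 0.07. Most of these are expressed in brain, such as the adducin gene Add1 with 4258 and the actin-bundling Dmtn with 2930 normalized counts on average in WT. The ankyrin gene Ank1 had 3983 normalized counts in WT replicate 1 against 805 to 1055 elsewhere, and Epb41, for protein 4.1, had 1294 against 449 to 596.

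All 15 genes of heme synthesis were tested, 0 had an unadjusted p under 0.05, and the median log2 fold change was -0.06. The housekeeping enzyme Alas1, the counterpart of Alas2 in other tissues, had 641 ± 66.1 normalized counts in WT and 666 ± 40.8 in Sgo1-/+ mice, and ferrochelatase (Fech), which puts iron into heme, had 776 ± 60.7 and 749 ± 30.9 (SD, n = 3). Neither showed the pattern of Alas2. The smallest p-values belonged to the heme exporter Flvcr1, with a log2 fold change of -0.41 (edgeR, unadjusted p = 0.189), and to Uros, with 0.19 (unadjusted p = 0.219). Flvcr1 was highest in WT replicate 1, at 271 normalized counts against 128 to 177 elsewhere.

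Of 19 genes of heme breakdown and iron handling, 17 were tested, 0 had an unadjusted p under 0.05, and the median was -0.05. The ferritin chains Fth1 and Ftl1 had log2 fold changes of 0.12 and 0.09, the iron regulator Ireb2 had -0.19 (edgeR, unadjusted p = 0.0727) and heme oxygenase Hmox1, which degrades heme, had -0.41 (unadjusted p = 0.252). Of 16 erythroid transcription factors and genes of erythropoietin signalling, 12 were tested, 0 had an unadjusted p under 0.05, and the median was 0.19. Here Zbtb7a and Ldb1 were the most abundant, with log2 fold changes of 0.12 and 0.03. Tal1 had -0.69 (edgeR, unadjusted p = 0.0965) and Epo, for erythropoietin, had 0.83 (unadjusted p = 0.109). In WT replicate 1, Tal1 was highest, at 70.5 normalized counts against 23.5 to 38.5 elsewhere, and Epo was lowest, at 5.35. Gata1 and Klf1, which drive globin transcription, had at most 2.01 and 2.05 normalized counts in any library. Of 6 other globins, 2 were tested: cytoglobin (Cygb) had 1037 ± 256 normalized counts in WT and 848 ± 80.9 in Sgo1-/+ mice, and neuroglobin (Ngb), a globin of neurons, had 85.7 ± 45.8 and 108 ± 65.0 (SD, n = 3). Cygb was highest in WT replicate 1, at 1329, and Ngb in Sgo1-/+ replicate 2, at 164, so neither followed the adult globins.

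Vessel and white blood cell markers were read in the same libraries. In Sgo1-/+ replicate 1, where the globins were highest, 11 of 20 endothelial genes were also highest, against 12.3% of all genes tested. Their summed normalized count was 9012 there, and 6523, 7467 and 6661 in WT and 5913 and 6675 in Sgo1-/+ replicates 2 and 3. The endothelial median was thus raised by 0.43 on the log2 scale in that library, and the median of the 4 adult globins by 1.88, both relative to the median library. Between the genotypes, 0 of the 20 endothelial genes had an unadjusted p under 0.05, with a median of 0.10, or -0.10 without Sgo1-/+ replicate 1. The most abundant were the receptor Flt1, with a log2 fold change of 0.12, and the transporter Slco1c1, with -0.11. The smallest p-values were those of Slco1a4 (-0.20, edgeR, unadjusted p = 0.0944) and Eng (-0.29, unadjusted p = 0.208).

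Mural cell genes, of pericytes and smooth muscle, were even across the libraries, with a sum between 2652 and 3222. Of 14, 13 were tested, 0 had an unadjusted p under 0.05, and the median log2 fold change was 0.07, with 0.12 for Rgs5, -0.04 for Vtn, 0.38 for Cspg4 and -0.35 for Notch3. Neutrophil genes were highest in another library than the globins, with a sum of 1109 in WT replicate 2 against 179 to 381 elsewhere. Sgo1-/+ replicate 1 was next, at 381, and Sgo1-/+ replicates 2 and 3 were lowest, at 179 and 241, so that the upper and the lower 2 libraries were those of the globins. S100a9, abundant in neutrophil cytoplasm, had 329 normalized counts in WT replicate 2 and at most 34.6 elsewhere, S100a8 was also highest there, at 204, and Csf3r was even, between 88.3 and 131. Of 13 neutrophil genes, 6 were tested and 0 had an unadjusted p under 0.05, with a median of -0.58, and -1.59 without Sgo1-/+ replicate 1.

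Platelet genes had a sum of 145 to 208, with 4 of 11 tested, 0 at an unadjusted p under 0.05 and a median of 0.07. The named ones were Gp1bb, with a log2 fold change of 0.29, and Itga2b, with -0.31. Of 17 lymphocyte genes, 4 were tested, 0 had an unadjusted p under 0.05, and the median was 0.66. Ighm had 0.40, Cd4 1.00 and Igkc 0.91. Cd4 had 7.05 normalized counts in WT replicate 1 and 165 to 399 elsewhere, so its fold change rests on that library. The T cell genes Cd3d, Cd3e and Cd3g had at most 9.72, 2.03 and 4.53 in any library, so the Cd4 counts cannot be read as T cells. Without Sgo1-/+ replicate 1 the median was 0.02, but it also took in Ccl5 (-0.93), which was not tested with all libraries. The 2 medians thus cover different genes. In that fit Ighm had 0.67, Cd4 0.93, Igkc 0.02 and Cd8a -0.04. The B cell gene Ms4a1 reached 28.9 normalized counts in Sgo1-/+ replicate 1, against 6.04 or fewer elsewhere. What part blood, vessel or white cell content had in the globin levels was not tested.

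**Figure D4:**
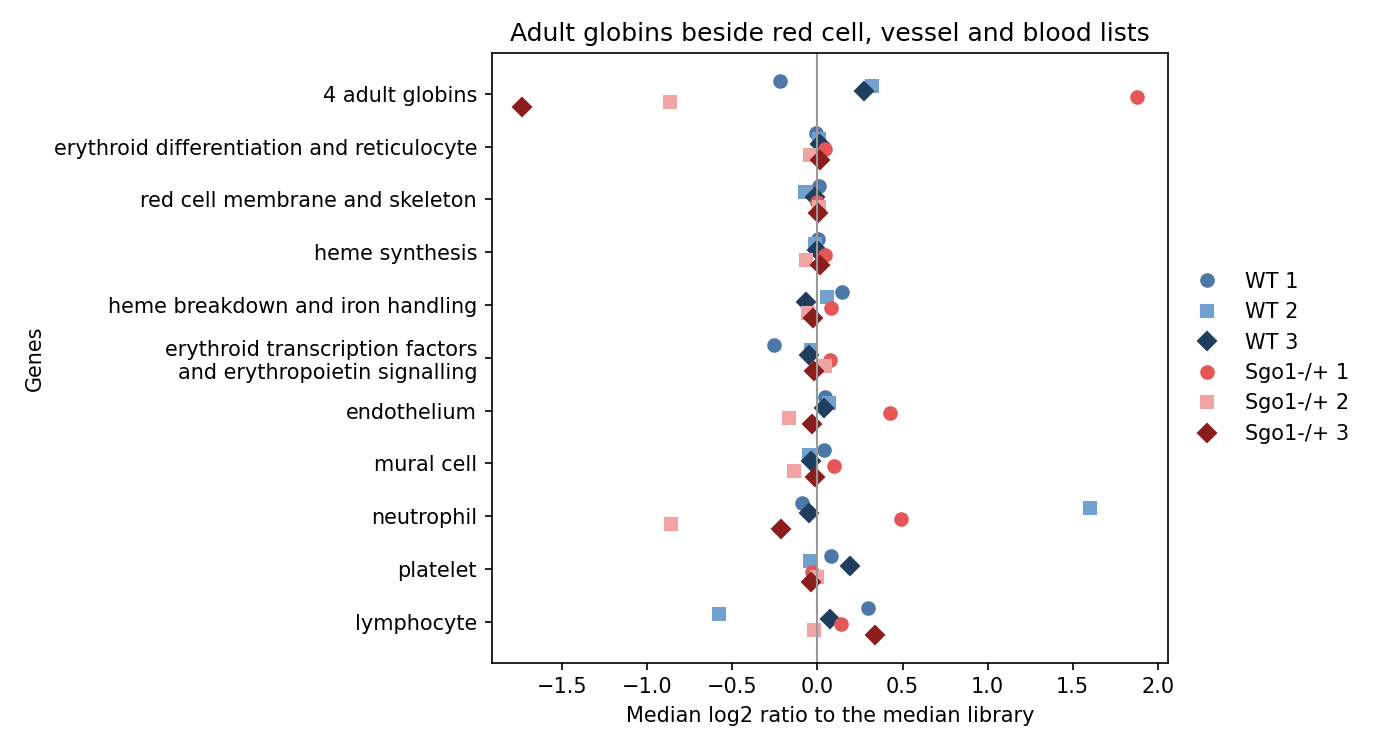
Median log2 ratio to the median library (x axis) of the 4 adult globins and of the tested genes of 10 red cell, vessel and blood lists (y axis), 1 point per library (blue WT, red Sgo1-/+). The adult globins run from -1.73 in Sgo1-/+ replicate 3 to 1.88 in Sgo1-/+ replicate 1, the endothelial genes from -0.17 to 0.43, and the neutrophil genes are highest in WT replicate 2, at 1.60.

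Markers of choroid plexus, of meninges and of cerebellum and brain stem also differed between libraries. Choroid plexus genes summed to 22165, 7945 and 671 in WT and to 1350, 449 and 25428 in Sgo1-/+ mice, an order in which Sgo1-/+ replicate 3, the lowest in globins, was the highest. Of these 13 genes, 0 had an unadjusted p under 0.05 and the median log2 fold change was -0.09, or 0.25 without Sgo1-/+ replicate 1, with Ttr, the transthyretin gene, at -0.25, Kl at 0.61, Prlr at 1.54 and Sostdc1 at -1.20. Meningeal genes summed to 2879, 2676 and 1913 in WT and to 2359, 728 and 2302 in Sgo1-/+ mice, with 12 of 12 fitted lower and a median of -0.63, or -1.11 without Sgo1-/+ replicate 1. Of the 12, 2 had an unadjusted p under 0.05, against 2.04% of all genes tested, namely Slc22a6 (-1.11, edgeR, unadjusted p = 0.00831) and Crabp2 (-1.78, unadjusted p = 0.0333). Igf2 and Mgp, the most abundant meningeal genes, had -0.31 and -0.05. Of 10 tested genes of cerebellum and brain stem, 2 had an unadjusted p under 0.05, namely Slc6a5 (-6.78, unadjusted p = 0.0221) and Cbln1 (-2.64, unadjusted p = 0.0429), both highest in WT replicate 1, as were Calb1 (-0.68) and Car8 (-2.94). The 12 neuron genes had a median of 0.11 with 0 at an unadjusted p under 0.05. Snap25 had 0.03, Camk2a 0.53, Thy1 0.20 and Nrgn 0.72. Camk2a had 3573 normalized counts in WT replicate 1 and at least 29744 elsewhere, and Nrgn had 1064 and at least 7524.

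The genes nearest in profile to the summed alpha globins were few. The measure was the root mean square difference of centred log2 normalized counts over the 6 libraries, which had a median of 1.13 over 16332 tested genes that are not members. Hbb-b2 stood at 0.15, Hbb-b1 at 0.28 and Alas2 at 0.40. The 5 nearest other genes, the only ones within 0.5, were Sult1a1 at 0.44, Gimap6 at 0.45, Gm12840 at 0.46, Nkpd1 at 0.48 and Pla2g4e at 0.49, so none was nearer than Alas2. Sult1a1, a sulfotransferase, had 85.4, 255 and 123 normalized counts in WT and 343, 70.2 and 46.8 in Sgo1-/+ mice. Gimap6, an immunity-associated GTPase, had 50.4, 46.2 and 48.9 in WT and 146, 52.7 and 20.5 in Sgo1-/+ mice. Pla2g4e, a phospholipase, had 107, 145 and 116 in WT and 362, 79.5 and 82.8 in Sgo1-/+ mice. All 5 were highest in Sgo1-/+ replicate 1, and their fitted log2 fold changes lay between -0.47 for Nkpd1 and 0.60 for Gimap6. This likeness over 6 libraries was used to choose these genes and is a description.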

How the data were processed

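The authors aligned paired reads to mm10 in Strand NGS. They deposited unnormalized estimated counts of 38087 genes in each library; the Ensembl release and the strand setting are not given in the sources used here. Further deposited columns hold the authors' normalized log2 values and their fold changes, which were not used. The count columns carry no sample name; groups and replicates were matched through the numbers in the column names and sample titles. Low whole counts were mostly even (62.5 to 67.5% of those from 1 to 10), so counts were halved for the intervals. A count of 0 allows up to 3 fragments, for counting error only.

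Counts were rounded to whole numbers and fitted with edgeR 4.0.16 (TMM, default filter, quasi-likelihood test, no covariates), with Benjamini-Hochberg adjustment over 16337 genes. The SE is the log2 fold change divided by the square root of F. Sums and ratios were compared by exact permutation over 20 groupings. Alternatives were DESeq2 1.42.0, limma 3.58.1 on log2 of DESeq-normalized counts plus 1, other scalings and filters, sex, the replicate number and each library left out. Per-length values use the longest GENCODE M21 transcript, and 36308 gene IDs matched M21.

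All members were named, and of each marker list the 2 most abundant tested genes and the 2 of smallest p. Genes of lists given beyond these (Alas1, Fech, Gata1, Klf1, Ms4a1, Ccl5, Cd8a, Cd3d, Cd3e and Cd3g) were named with their values known. The members and lists were chosen with earlier results of these data known. Replicates were separate mice.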

Additional observations from a re-analysis of the deposited data

How the results depend on the processing

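The signs of the members' fold changes depended on the fit. With the replicate number as a block, the log2 fold changes became -0.38 for Hba-a1, -0.18 for Hba-a2, -0.73 for Hbb-b1, -0.63 for Hbb-b2, -0.65 for Alas2 and -0.62 for Slc4a1. The numbers did not pair the samples (correlations of same-numbered deviations of -0.146, 0.0140 and -0.207), and the block changed no call. Limma, which compares means of log2 values as the comparison of the sums does, gave -0.27, -0.12, -0.61, -0.50, -0.51 and -0.66 in the same order. Sex as a covariate gave -0.056 for Hbb-b1 and -0.082 for Slc4a1, and the cause of that change was not tested. With 1 library left out, the range was -1.27 to 1.03 for Hba-a1, -1.11 to 1.09 for Hba-a2, -1.65 to 0.61 for Hbb-b1, -1.53 to 0.87 for Hbb-b2, -1.68 to 0.69 for Alas2 and -2.69 to 0.68 for Slc4a1, lowest without Sgo1-/+ replicate 1 in each. Without WT replicate 1, Hbb-b1 had -0.03 and Alas2 -0.17, and without WT replicate 2, Slc4a1 had -0.21. The log2 difference ranged from -1.29 to 0.51 for the alpha sum, from -1.62 to 0.18 for the beta sum, from -1.47 to 0.34 for all members and from 0.19 to 0.42 for the alpha to beta ratio. The block left the sums and the ratio at the same mean differences. Genes called at 2-fold over all genes were 0, but 2 by DESeq2's Wald test and 1 without Sgo1-/+ replicate 2, and no member was among them. DESeq2's size factors and total counts turned no direction of the 6 genes above, and the filters none of the 5 tested. With 3 libraries per group, exact tests could not go below 0.1. Low counts limit Slc4a1 and the embryonic globins.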
